A study of Mus musculus with 6 samples.

Results

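Metallothioneins are small cysteine-rich proteins that bind zinc and copper, and 4 genes of zinc handling are described here in B16 mouse melanoma cells under low oxygen. They are Mt1 and Mt2, the metallothioneins that most tissues express, Mtf1, the metal-sensing transcription factor that drives them, and Slc30a1, the zinc exporter ZnT1 of the plasma membrane. The genes were chosen on measured values of these same arrays, so their levels and differences are given as a description and no test is made of them. They are 4 of 12394 genes named on the array, with 6 probe sets (groups of oligonucleotides that measure 1 transcript), all of which are shown. In 4 of the 6, covering 3 of the 4 genes, the mean signal reached 8.33 units, the minimum set for counts.

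Gene expression was measured on 6 Affymetrix arrays, 1 per group, in a cultured line grown with 10% serum and moved to medium without serum 2 h before exposure. The normoxia array was collected after 3 h and the normoxia +1h array 1 h later. Chronic hypoxia was 3 h below 1% oxygen, and cyclic hypoxia was 3 periods of 1 h of hypoxia with 30 min of reoxygenation in between. For each regime 1 array was taken as the exposure ended and another after 1 h of reoxygenation. If a pause followed the first and the second period only, the cyclic regime ran for 4 h, and the labels do not say that a normoxia array was matched to that time.

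Zinc that enters the cytosol is bound by metallothioneins or moved out by exporters of the ZnT family, while importers of the ZIP family bring it in. When free zinc increases, MTF1 binds metal response elements in the promoters of Mt1, Mt2 and Slc30a1 and activates them. Oxidants and low oxygen are also known to induce metallothioneins, and the thiols of these proteins react with oxidants.

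The 3 genes with matches to the metal response element core are shown by the 250 bases before their RefSeq start (GRCm38.p6, plus strand, 5′ to 3′). These bases are called the promoter here. Whether transcription began at the RefSeq start in these cells was not tested. Capitals mark the core, searched on both strands as TGCGCNC and TGCACNC. Mt2 lies at chr8:94172368-94172617, Mt1 at chr8:94178839-94179088 and Slc30a1 at chr1:191906531-191906780.
Mt2: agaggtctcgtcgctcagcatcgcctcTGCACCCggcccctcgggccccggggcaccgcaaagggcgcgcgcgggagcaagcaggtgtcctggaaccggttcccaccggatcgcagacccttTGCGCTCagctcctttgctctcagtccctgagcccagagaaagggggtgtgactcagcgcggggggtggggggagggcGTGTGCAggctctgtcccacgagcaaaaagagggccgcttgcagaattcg
Mt1: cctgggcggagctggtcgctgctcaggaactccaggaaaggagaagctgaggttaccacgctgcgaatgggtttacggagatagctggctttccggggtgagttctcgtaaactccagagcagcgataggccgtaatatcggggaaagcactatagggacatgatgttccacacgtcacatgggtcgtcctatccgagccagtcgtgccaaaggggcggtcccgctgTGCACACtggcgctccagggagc
Slc30a1: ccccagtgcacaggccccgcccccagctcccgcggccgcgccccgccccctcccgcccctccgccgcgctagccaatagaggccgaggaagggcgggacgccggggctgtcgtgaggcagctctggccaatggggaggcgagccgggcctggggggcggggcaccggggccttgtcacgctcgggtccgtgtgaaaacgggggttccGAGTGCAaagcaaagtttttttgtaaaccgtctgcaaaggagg

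The Mt2 promoter held 3 cores, at 223 to 217, 128 to 122 and 50 to 44 bases before the start, the last of them on the minus strand. The Mt1 promoter held 1 core, at 23 to 17 bases, and the Slc30a1 promoter held 1, at 43 to 37 bases on the minus strand. The Mtf1 promoter held 0. Of 32851 mouse promoters of the same length, 21.4% held at least 1 core and 1.26% held at least 3. Counted to 50 bases past the start, a window chosen after the data were seen, Mt2 had 4 cores, Mt1 had 3, Slc30a1 had 2 and Mtf1 had 0. The Mt1 count in particular depended on where the window ended, and no other start was searched. As many were found in 0.517%, 1.97% and 7.11% of promoters for Mt2, Mt1 and Slc30a1.

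The core of the hypoxia response element, the site bound by HIF, was searched as ACGTG and GCGTG on both strands. The Mt2 promoter held 1, at 52 to 48 bases before the start, which overlaps the metal response element core nearest to the start. Mt1 held 2, at 194 to 190 and 79 to 75 bases, Slc30a1 held 1, at 75 to 71 bases, and Mtf1 held 0. At least 1 was present in 38.6% of all promoters and at least 2 in 16.7%, so these short letters are common. A match describes the letters and does not show that a factor bound there. In the RefSeq order of protein-coding genes Mt4, Mt3, Mt2 and Mt1 follow each other, between Bbs2 and Nup93.

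All signals are in linear array units as deposited, and differences are log2 of the ratio of 2 arrays after signals under 2.10 units were set to that floor. With 1 array per group a difference has no error of its own. The only spread that can stand beside it is the difference of the normoxia arrays, which were 1 h apart. It is given for each probe set, with its SD over the 500 probe sets nearest in mean signal, called the local SD. That SD also holds any change over the hour. For Mt2 and the bright Mt1 probe set the 500 are the brightest on the array. The trimmed mean was 100 units in every array, the median signal lay between 15.9 and 19.3 units, and 18.4% to 21.2% of probe sets were below the floor. The normoxia pair had an SD of 0.44 over the probe sets kept, while the widest of the 4 hypoxia contrasts, cyclic hypoxia with reoxygenation against its control, had one of 0.76.

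Markers of the melanocyte lineage were bright in all 6 arrays, with 6 of 7 listed genes on the array and signals from 635 to 7144 units. Their summed signal lay between 17658 and 23299 units. The lineage factor Mitf was lowest in the cyclic arrays, with 2366 and 2568 units in the normoxia arrays, 2820 and 2225 in the chronic arrays and 1256 and 635 in the cyclic ones, and its part in the results was not tested. None of the 4 fibroblast markers and neither of the 2 endothelial markers passed the minimum, with sums of 13.2 to 26.3 and 2.12 to 7.05 units. Of 3 immune markers only Cd68 passed (27.4 to 44.5 units; sum of the list 30.6 to 48.9), and of 2 keratinocyte markers only Krt5 (6.84 to 14.0 units; sum 8.48 to 19.7). In bulk RNA, fewer cells of a type and less RNA per cell cannot be told apart.

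Mt2 had the clearest differences of the 4 genes. Its probe set (1428942_at) read 1044 units in normoxia, 1938 in normoxia +1h, 2915 in chronic hypoxia, 3440 after chronic hypoxia and reoxygenation, 3026 in cyclic hypoxia and 4095 after cyclic hypoxia and reoxygenation. All 4 hypoxia arrays lay above both normoxia arrays, and within each regime, normoxia included, the later array was the higher. Of the probe sets kept, 8.65% had all 4 hypoxia arrays above both normoxia arrays.

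At the end of exposure Mt2 was 2.79-fold higher in chronic hypoxia (log2 1.48) and 2.90-fold higher in cyclic hypoxia (log2 1.54) than in normoxia. These were the 148th and 107th highest differences among 13556 probe sets. One hour later, against normoxia +1h, it was 1.78-fold higher after chronic hypoxia (log2 0.83) and 2.11-fold higher after cyclic hypoxia (log2 1.08). The hypoxia differences were thus smaller at the later collection, where the control itself was brighter.

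Between the normoxia arrays, with no hypoxia, Mt2 was 1.86-fold higher at the later collection (log2 0.89). That was the 208th highest of 13556 such differences and well past the local SD of 0.15. In the same hour it was higher by 0.24 after chronic and by 0.44 after cyclic hypoxia. The 100 probe sets nearest in mean signal had medians of 0.12 in normoxia, 0.08 after chronic and 0.25 after cyclic hypoxia over that hour. Mt2 was 0.77, 0.16 and 0.19 above those medians. Because the normoxia arrays differed, the size of the hypoxia difference depended on which of them was the control. Against the other normoxia array it was 0.59 for chronic and 0.64 for cyclic hypoxia at the end of exposure, and 1.72 and 1.97 an hour later. Against the mean of both it was 1.04, 1.09, 1.27 and 1.53 in the same order. The sign was the same under all 3 choices of control, which follows from every hypoxia array lying above both normoxia arrays and is no further check.

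Ordered by level, the Mt2 arrays ran from normoxia through normoxia +1h, chronic hypoxia, cyclic hypoxia and chronic hypoxia with reoxygenation to cyclic hypoxia with reoxygenation, a range of 1.97 log2 units. The neighbouring steps were 0.89, 0.59, 0.05, 0.18 and 0.25. Only the step from chronic to cyclic hypoxia was within the local SD, so the signals as deposited did not separate the regimes at the end of exposure. An hour later Mt2 was 0.25 higher after cyclic than after chronic hypoxia. The 100 probe sets nearest to Mt2 in mean signal, a comparison added after the data were seen, had median differences of 0.17, -0.00, 0.17 and 0.18 in the 4 hypoxia contrasts (chronic and cyclic at the end, then chronic and cyclic an hour later). Above those medians Mt2 was 1.31, 1.54, 0.66 and 0.90 higher. For cyclic minus chronic hypoxia the medians were -0.15 at the end of exposure and 0.02 an hour later. Mt2 was 0.21 and 0.23 above them, beside the local SD of 0.15. Whether the regimes differed at the end of exposure thus depended on this comparison.

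**Figure D1:**
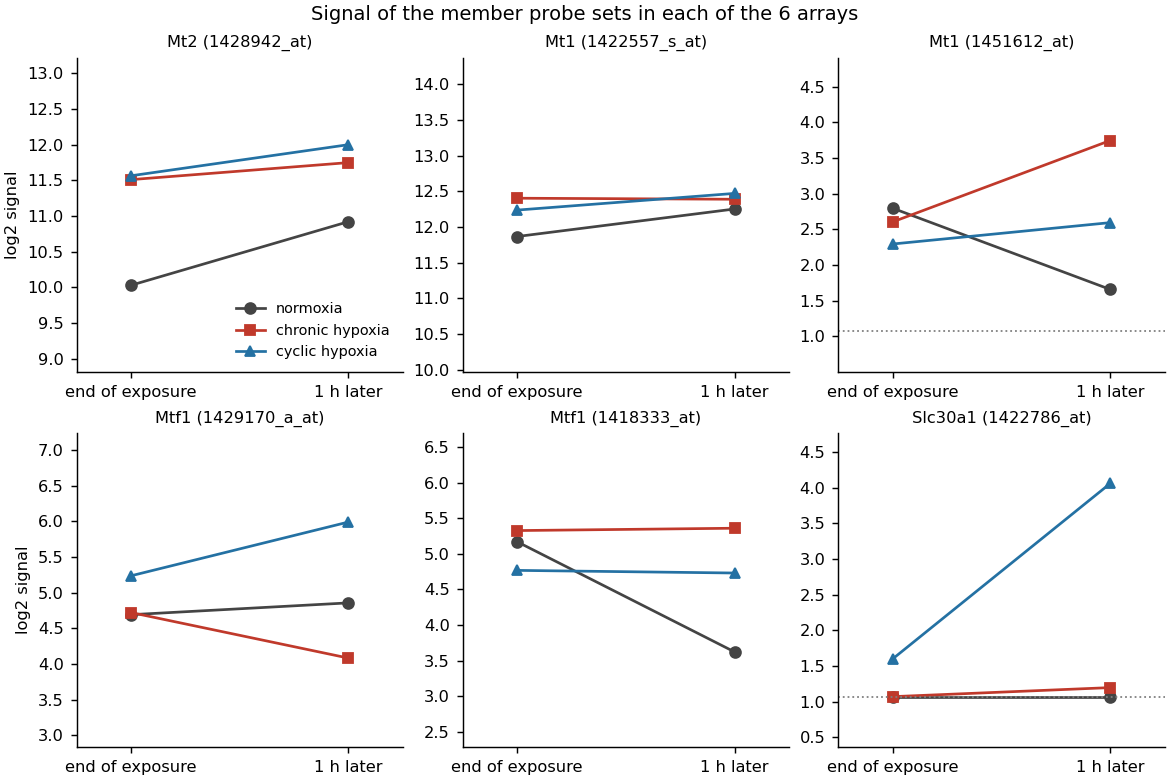
Log2 signal of every probe set of Mt2, Mt1, Mtf1 and Slc30a1, 1 point per array, by collection (end of exposure or 1 h later), with a line joining the arrays of a regime and a dotted line at the floor of 2.10 units where it is in range. For Mt2 the 4 hypoxia points lie above both normoxia points, while the bright Mt1 probe set overlaps normoxia +1h. The dim Mt1 probe set and the Mtf1 probe sets cross between groups, and Slc30a1 lies at or near the floor in all arrays but 1.

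Mt1, the metallothionein gene next to Mt2, differed far less. Its bright probe set (1422557_s_at) read 3734 units in normoxia, 4880 in normoxia +1h, 5420 in chronic hypoxia, 5366 after chronic hypoxia and reoxygenation, 4828 in cyclic hypoxia and 5679 after cyclic hypoxia and reoxygenation. The first normoxia array was the lowest, and cyclic hypoxia lay below normoxia +1h, so the groups overlapped. The suffix s of such a probe set marks probes that more than 1 transcript can share. The annotation gives it to Mt1 alone, and whether Mt2 RNA binds it was not tested.

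The Mt1 differences from the normoxia array of the same collection were 0.54 in chronic and 0.37 in cyclic hypoxia at the end of exposure, and 0.14 and 0.22 an hour later. The normoxia arrays themselves differed by 0.39, and the local SD was 0.15. Of the steps in the order of levels, only that from normoxia to the next array (0.37) passed the local SD. Against normoxia +1h the end-of-exposure differences were 0.15 and -0.02.

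The brightest probe sets as a whole stood above the control in these contrasts. The 100 nearest to Mt1 in mean signal had median differences of 0.30 and 0.08 at the end of exposure and 0.30 and 0.23 an hour later. Relative to them, Mt1 was 0.24 and 0.29 higher at the end, and -0.17 and -0.01 an hour later. After quantile normalization, which gives every array the same distribution, the later differences were likewise -0.18 and -0.03. The direction of Mt1 1 h after hypoxia thus depended on the scaling. The brightest probe sets of the arrays read 5802 to 7778 units, and whether Mt1 neared saturation was not tested.

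A dim Mt1 probe set (1451612_at) read 6.95, 3.16, 6.08, 13.4, 4.91 and 6.04 units in normoxia, normoxia +1h, chronic hypoxia, chronic hypoxia with reoxygenation, cyclic hypoxia and cyclic hypoxia with reoxygenation. Its mean was below the minimum. Its differences were -0.19 and -0.50 at the end of exposure and 2.09 and 0.94 an hour later, beside -1.14 between the normoxia arrays and a local SD of 1.04. It did not follow the bright probe set, and no direction is given for Mt1 from it.

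**Figure D2:**
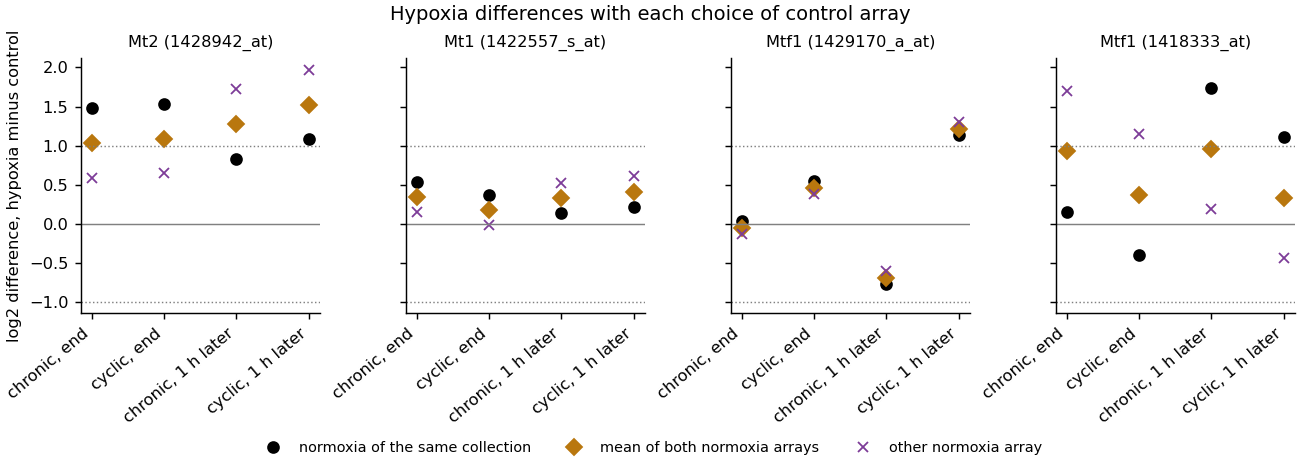
Log2 difference of the 4 member probe sets kept, in the 4 hypoxia contrasts, under each choice of normoxia control (marker shape), with 2-fold as dotted lines. Mt2 stays above 0 throughout, between 0.59 and 1.97, because its hypoxia arrays all lay above both normoxia arrays. For Mtf1 1418333_at the sign of the later cyclic difference changes with the control.

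**Figure D3:**
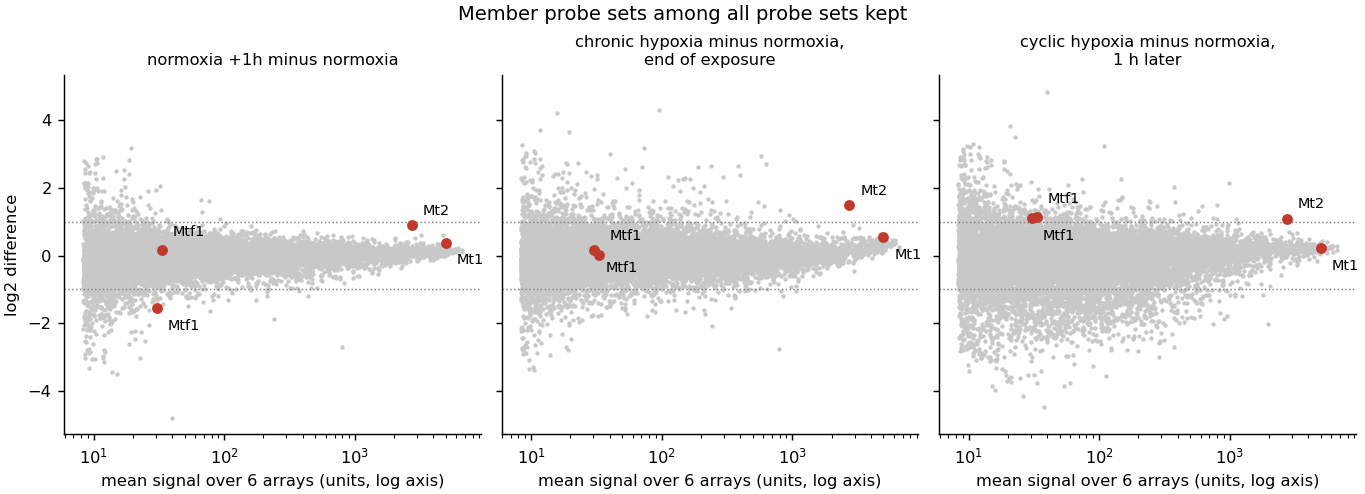
Log2 difference against mean signal (log axis) between the normoxia arrays, in chronic hypoxia at the end of exposure, and after cyclic hypoxia and reoxygenation, for the probe sets kept (grey) and the members (red), with 2-fold as dotted lines. Mt2 lies above most probe sets of like brightness in all 3 panels (0.89, 1.48 and 1.08), and Mt1 lies within the bright end an hour after cyclic hypoxia (0.22).

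Mtf1, the zinc-finger factor that reads free zinc, had a pair of dim probe sets that disagreed. The brighter of them (1429170_a_at) read 25.8 units in normoxia, 29.0 in normoxia +1h, 26.4 in chronic hypoxia, 16.9 after chronic hypoxia and reoxygenation, 37.7 in cyclic hypoxia and 63.6 after cyclic hypoxia and reoxygenation. Both cyclic arrays were above the normoxia arrays, and the array after chronic hypoxia was the lowest of all. Its differences were 0.03 in chronic and 0.54 in cyclic hypoxia at the end of exposure, then -0.77 and 1.13 an hour later, with 0.17 between the normoxia arrays and a local SD of 0.39.

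The other Mtf1 probe set (1418333_at) read 36.0, 12.3, 40.1, 41.0, 27.2 and 26.6 units in normoxia, normoxia +1h, chronic hypoxia, chronic hypoxia with reoxygenation, cyclic hypoxia and cyclic hypoxia with reoxygenation. Here normoxia +1h alone was low, and the chronic arrays were above the cyclic ones. The differences were 0.16 and -0.40 at the end of exposure and 1.73 and 1.11 an hour later. The normoxia arrays differed by -1.55, over 3 times the local SD of 0.44, so the later values turn on that 1 low control. Against the first normoxia array they were 0.19 and -0.44.

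Cyclic minus chronic hypoxia, a contrast that holds no normoxia array, gave opposite signs at the 2 Mtf1 probe sets at each collection. At 1429170_a_at it was 0.51 at the end of exposure and 1.91 an hour later, and at 1418333_at it was -0.56 and -0.63. No direction for Mtf1 RNA between the regimes follows from the pair.

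Slc30a1, the exporter that MTF1 also drives, was near or below the floor in all arrays but 1. Its probe set (1422786_at) read 0.993 units in normoxia, 0.634 in normoxia +1h, 1.20 in chronic hypoxia, 2.29 after chronic hypoxia and reoxygenation, 3.03 in cyclic hypoxia and 16.7 after cyclic hypoxia and reoxygenation. The first 3 of these were below the floor of 2.10 units. The array after cyclic hypoxia and reoxygenation stood apart, at least 7.94-fold above normoxia +1h (log2 at least 2.99, with the control at the floor), beside a local SD of 1.05. The bound moves with the floor: it was 4.50 with the floor at the 10th percentile of all values and 1.79 at the 30th. Of 2920 probe sets below the floor in both normoxia arrays, 18.4% were at least 2-fold above it in this array and 15.2% in the array after chronic hypoxia and reoxygenation. These shares are at 2-fold, a lower bar than the 7.94-fold of Slc30a1, and no share was counted at that size. The other Slc30a1 differences were 0.00 in chronic and 0.53 in cyclic hypoxia at the end of exposure and 0.13 after chronic hypoxia and reoxygenation.

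Counted at 2-fold, 1 of the 4 member probe sets kept was higher in chronic hypoxia at the end of exposure (Mt2), where 2.88% of all probe sets kept were. In cyclic hypoxia it was again 1 (Mt2), beside 2.94%. An hour later it was 1 after chronic hypoxia (Mtf1 1418333_at), beside 3.44%, and 3 after cyclic hypoxia (Mt2 and both Mtf1 probe sets), beside 4.01%. None of the 4 was 2-fold lower in these contrasts, where the shares of all probe sets kept were 3.11%, 6.01%, 1.56% and 11.8%. Between the normoxia arrays 1 was 2-fold lower (Mtf1 1418333_at) and 0 were higher, beside 2.61% and 1.24%. Among the 5476 probe sets with a mean of at least 100 units, the shares at least 2-fold higher were 1.30%, 1.22%, 1.02% and 1.06% in the hypoxia contrasts and 0% between the normoxia arrays. Because the members were picked on these contrasts, nothing is read from their counts.

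The other genes of zinc and copper handling were taken from listed families, each gene by its brightest probe set. Of all 7745 genes kept, 2.53% and 2.12% were 2-fold higher in chronic and cyclic hypoxia at the end of exposure, and 2.98% and 3.56% an hour later. The shares 2-fold lower were 2.36%, 5.44%, 1.12% and 10.6% in the same order. The median of all genes was within 0.03 of 0 in each contrast. Neither of the other metallothioneins passed the minimum: Mt3, known from brain, read 0.414 to 5.89 units and Mt4, known from stratified epithelia, 0.396 to 3.05.

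Of 9 other ZnT exporters 7 were named on the array and 6 were kept. At the end of exposure 1 was 2-fold lower in chronic and 1 in cyclic hypoxia, and 0 were higher. An hour later 1 was higher after chronic hypoxia, and 1 was higher and 1 lower after cyclic hypoxia. The list medians were 0.23, 0.13, -0.00 and -0.20. The gene behind all of these but 1 was Slc30a3, which loads zinc into synaptic vesicles in neurons. It read 21.8, 5.69, 5.83, 15.9, 2.72 and 21.7 units in normoxia, normoxia +1h, chronic hypoxia, chronic hypoxia with reoxygenation, cyclic hypoxia and cyclic hypoxia with reoxygenation. Its differences (-1.90, -3.00, 1.48 and 1.93) stood beside one of -1.94 between the normoxia arrays.

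The other was Slc30a4, an exporter of intracellular vesicles. It read 27.9 units after cyclic hypoxia and reoxygenation and 63.9 to 86.2 in the other arrays, a difference of -1.55 from normoxia +1h. The 3 brightest exporters, Slc30a5 and Slc30a6, which supply zinc to the secretory pathway, and Slc30a9, lay within 0.44 of their control in all 4 hypoxia contrasts.

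Of 14 ZIP importers 10 were named on the array and 8 were kept. By its brightest probe set none was 2-fold from control in any of the 4 contrasts, and the medians were 0.05, -0.16, 0.04 and 0.05. The brightest were Slc39a6, Slc39a7 and Slc39a9. Slc39a7, which releases zinc from the endoplasmic reticulum, read 129, 163, 155, 147, 224 and 267 units in normoxia, normoxia +1h, chronic hypoxia, chronic hypoxia with reoxygenation, cyclic hypoxia and cyclic hypoxia with reoxygenation. Both cyclic arrays were above the other 4, with differences of 0.79 at the end of exposure and 0.71 an hour later, beside 0.34 between the normoxia arrays. At their brightest probe sets Slc39a6 differed by at most 0.22 in size and Slc39a9 by at most 0.47. A dimmer Slc39a6 probe set differed by 0.10, 0.64, 0.42 and 0.09, beside a local SD of 0.59. For the 14 zinc transporters kept together, the medians were 0.07, 0.02, 0.04 and -0.04.

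Slc39a14, a plasma-membrane importer, was singled out after its values were seen. At its brightest probe set it read 161 units in chronic and 69.1 in cyclic hypoxia, beside 92.7 in normoxia, a cyclic minus chronic difference of -1.22. A dimmer probe set of the same gene was higher than normoxia in both, by 1.12 and 0.86, so the probe sets disagreed on the cyclic direction. An hour later the dimmer probe set was at 0.53 after chronic and 1.08 after cyclic hypoxia. The brightest was at 0.37 and -0.20 there.

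**Figure D4:**
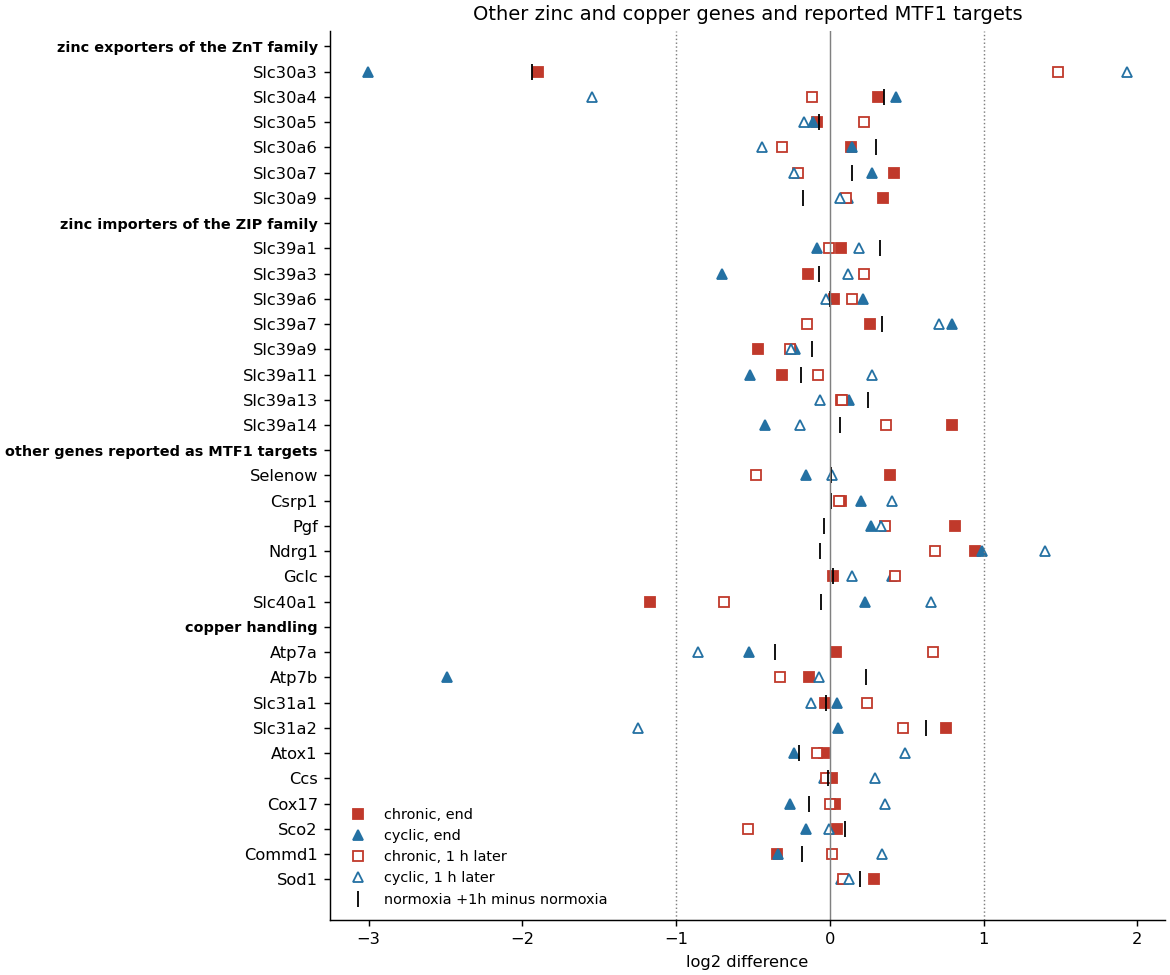
Log2 difference of each kept gene of the zinc, MTF1 target and copper lists in the 4 hypoxia contrasts (coloured markers) and between the normoxia arrays (black bar), with 2-fold as dotted lines. Few points pass 2-fold, and Slc30a3, at -1.94 between the normoxia arrays, spans both sides.

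Of 7 other genes reported as MTF1 targets 6 were kept. At the end of exposure 1 was 2-fold lower in chronic hypoxia and none was 2-fold from control in cyclic hypoxia. An hour later none was after chronic hypoxia and 1 was higher after cyclic hypoxia. These counts take the brightest probe set of each gene, and dimmer probe sets differed. In cyclic hypoxia at the end of exposure those of Ndrg1 were at 1.56, 1.15, 1.22 and 1.58. A dimmer Gclc probe set was at 1.37 there, and a dimmer Selenow probe set at -1.09. The medians were 0.23, 0.25, 0.21 and 0.37, beside -0.02 between the normoxia arrays.

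The gene 2-fold higher was Ndrg1, which HIF is also known to induce. It read 146 and 140 units in normoxia and normoxia +1h, 282 and 224 in the chronic arrays and 290 and 370 in the cyclic ones. All 4 hypoxia arrays were above both normoxia arrays, with differences of 0.94, 0.99, 0.68 and 1.40 and -0.07 between the normoxia arrays. The gene 2-fold lower was Slc40a1, the iron exporter ferroportin, at 17.3 units in chronic hypoxia against 39.0 in normoxia, a difference of -1.17. In cyclic hypoxia at the end of exposure it differed by 0.23, within the local SD of 0.42. An hour later it differed by -0.69 after chronic and by 0.66 after cyclic hypoxia, where it read 59.2 units. A dimmer Slc40a1 probe set differed by -0.16 and 0.02 at the end of exposure and by -0.03 and 0.88 an hour later. The decrease in chronic hypoxia was thus not shared by both probe sets. Csrp1, a LIM-domain protein, and Gclc, the catalytic subunit of the first enzyme of glutathione synthesis, were the brightest besides Ndrg1. At their brightest probe sets the differences lay between 0.06 and 0.41 and between 0.02 and 0.42. A dimmer Csrp1 probe set differed by 0.38, 0.67, -0.36 and 0.26, beside 0.28 between the normoxia arrays. A dimmer Gclc probe set differed by 0.92, 1.37, -0.03 and 0.47, beside 0.69 between the normoxia arrays.

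Of 12 copper genes 10 were named on the array and all 10 were kept. None was 2-fold higher in the 4 hypoxia contrasts, and 1 was 2-fold lower in cyclic hypoxia at the end of exposure and 1 after cyclic hypoxia and reoxygenation. The medians were 0.02, -0.19, 0.01 and 0.06. The former was Atp7b, a copper-exporting pump, at 1.21 units, which is below the floor, against 11.8 in normoxia and 13.2 after cyclic hypoxia and reoxygenation. Another Atp7b probe set, below the minimum, was at -0.13 in cyclic hypoxia at the end of exposure, beside 2.07 between the normoxia arrays. The gene lower after cyclic hypoxia and reoxygenation was Slc31a2, a copper transporter of endosomes, at 8.28 units against 19.7 in normoxia +1h, a difference of -1.25. Another Slc31a2 probe set, below the minimum, was at 0.49 there. Atp7a, also on the list, was singled out after its values were seen. Its brighter and dimmer probe sets were at -0.86 and -1.34 after cyclic hypoxia and reoxygenation, and at 0.67 and 0.68 after chronic hypoxia and reoxygenation. The brightest were Atox1, the chaperone that passes copper to the pumps, Cox17, which carries it to cytochrome oxidase, and Sod1, the copper-zinc superoxide dismutase. At their brightest probe sets Atox1 read 1176 to 1755 units, Cox17 1168 to 1637 and Sod1 528 to 660. A dimmer Sod1 probe set was at -0.93 after cyclic hypoxia and reoxygenation, where the brightest was at 0.13.

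The genes most like each member were ranked by the root mean square difference of their log2 signals over the 6 arrays, each gene centred on its own mean, among 3570 genes with a mean of at least 100 units. For Mt2, whose own spread about its mean was 0.65, they were Herpud1 (0.16), Bcar1 (0.26), Slc7a5 (0.28), Trib3 (0.31) and Gclm (0.31). Herpud1, a membrane protein of endoplasmic reticulum degradation, read 243, 366, 676, 647, 732 and 1009 units in normoxia, normoxia +1h, chronic hypoxia, chronic hypoxia with reoxygenation, cyclic hypoxia and cyclic hypoxia with reoxygenation. Like Mt2 it was higher in normoxia +1h than in normoxia and higher again in all 4 hypoxia arrays. Slc7a5 is an amino acid transporter, Trib3 a pseudokinase of the integrated stress response, Gclm the modifier subunit of glutamate-cysteine ligase and Bcar1 an adaptor of focal adhesions. After quantile normalization 4 of these 5 genes were again among the 5 nearest to Mt2, and 1 was when dimmer genes were ranked too.

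For Mt1, with a spread of only 0.20, the nearest were Cited1 (0.053), Csnk2a2 (0.057), B4galt1 (0.058), Tmem214 (0.059) and Gpnmb (0.064). None of these 5 was among the nearest after quantile normalization, and 4 were when dimmer genes were ranked too. For Mtf1, by 1429170_a_at and with a spread of 0.58, they were Txnrd1 (0.26), Mcrip1 (0.27), Tmem222 (0.27), Bcat1 (0.27) and Nnmt (0.28). Txnrd1, thioredoxin reductase, read 619 and 579 units in the normoxia arrays, 482 and 523 in the chronic arrays and 989 and 1255 in the cyclic ones. After quantile normalization 4 of the 5 remained among the nearest to Mtf1, and 0 did with dimmer genes ranked too. Slc30a1 was below the minimum and was not ranked.

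**Figure D5:**
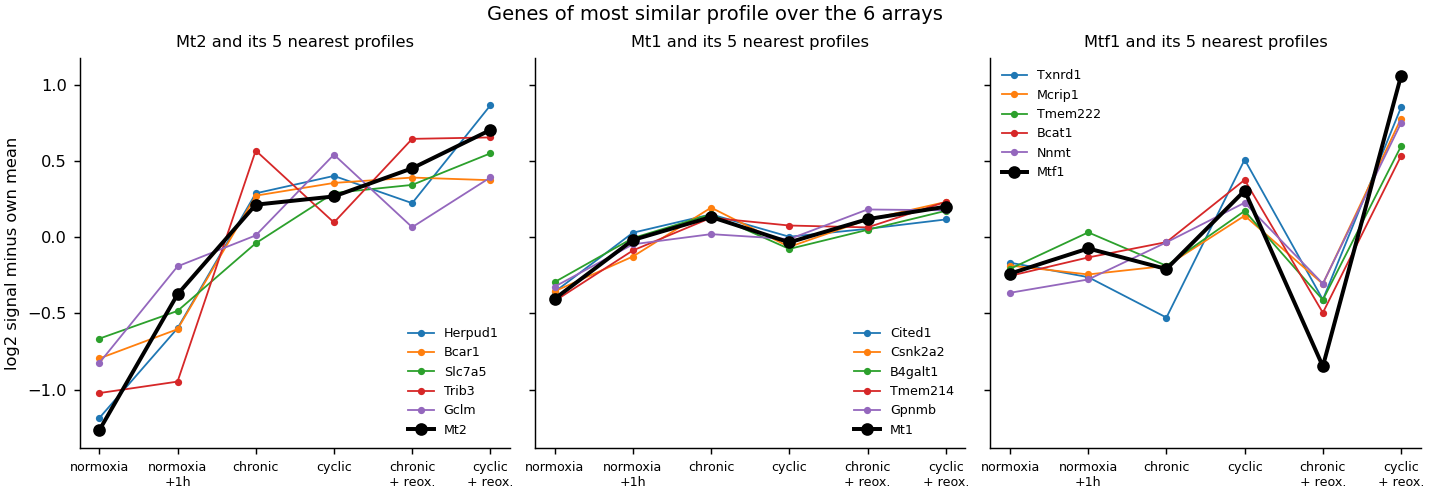
Log2 signal of Mt2, Mt1 and Mtf1 (1429170_a_at) in the 6 arrays, centred on each gene's mean, with the 5 genes of most similar profile (lines join 1 gene's arrays and are not a time course). Herpud1 follows Mt2 most closely, and the Mt1 panel spans a far narrower range.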

How the data were processed

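Linear signal intensity for 22690 probe sets in 6 arrays was used as deposited by the authors. Per the submitters' processing notes it was made with GCOS, whose version and algorithm are not given in the sources used here. No genome build and no detection calls were used for the signals. The trimmed mean (2% left out at each end) was 100 in every array, so no scaling was added.

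A floor at the 20th percentile (2.10 units) was applied before log2. Probe sets with a mean under the 40th percentile of means (8.33 units) and 64 control probe sets were left out, leaving 13556 and 7745 genes, each by its brightest probe set. Of all probe sets 20393 named 1 gene, 691 several and 1606 none, in the platform annotation. Current symbols were found for 20364. Promoters came from RefSeq (GRCm38.p6).

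No test was made: precision was limited by 1 array per group. Members and lists were chosen with earlier results of these data known. Named genes were the members, each list's genes at least 2-fold from control (at most 6) and its 3 brightest, the 5 nearest profiles per member, and the markers. Slc39a14, Selenow and Atp7a were named outside this rule, after their values were seen. Alternatives covered the floor, filter, scaling, threshold, control and probe-set rule. The code was tested on simulated data. Python 3.11.15, numpy 2.4.6, pandas 2.3.3 and matplotlib 3.10.9 were used.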

Additional observations from a re-analysis of the deposited data

Results flagged for a closer look

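Mtf1, by probe set 1429170_a_at, differed from normoxia +1h in opposite directions 1 h after the regimes: the log2 difference was -0.77 after chronic and 1.13 after cyclic hypoxia. Each rests on 1 array per regime, the difference between them was not tested, and the other Mtf1 probe set (1418333_at) was higher after both (1.73 and 1.11), against a normoxia +1h array that was itself low.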

How the results depend on the processing

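The direction of Mt2 held under every alternative run, with log2 differences between 0.59 and 1.97. For the choice of control this follows from every hypoxia array lying above both normoxia arrays. With the mean of both normoxia arrays as control, Mt2 was 1.04 and 1.09 (chronic and cyclic hypoxia, end of exposure) and 1.27 and 1.53 (an hour later), and Mt1 was 0.34, 0.18, 0.33 and 0.41. With the other normoxia array, Mt2 was 0.59, 0.64, 1.72 and 1.97, and Mt1 was 0.15, -0.015, 0.52 and 0.60. Under that control Mtf1 1418333_at turned to -0.44 after cyclic hypoxia and reoxygenation. Centring on the median moved that contrast by 0.19, to 1.27 for Mt2 and 0.41 for Mt1. Quantile normalization gave Mt2 0.63 and 0.91 an hour later, and Mt1 0.23 (chronic, end), -0.18 and -0.033 (an hour later). Less the median of the 100 nearest probe sets, Mt2 was 1.31 (chronic, end), 0.66 and 0.90 (an hour later), and Mt1 was 0.24, -0.17 and -0.0067. With all probe sets of a gene averaged, Mt1 was 0.17, -0.066, 1.11 and 0.58, and Mtf1 was 0.071 in cyclic hypoxia and 0.48 after chronic hypoxia and reoxygenation. With the floor at the 10th percentile, Slc30a1 was 1.61 in cyclic hypoxia, 1.64 after chronic and 4.50 after cyclic hypoxia and reoxygenation, and with the 30th the last was 1.79. At 1.5-fold, 3 member probe sets were past the threshold after chronic hypoxia and reoxygenation, not 1: Mt2 and Mtf1 1418333_at higher and Mtf1 1429170_a_at lower. Beyond what these settings do by construction, the cause was not tested. The lists' 2-fold counts, all 0 to 2, moved by 1 or 2 with the control, filter or threshold, and centring added 1 MTF1 target in cyclic hypoxia at the end of exposure. No paired analysis was possible because no result comes from a test. Each hypoxia difference is taken against the normoxia array of the same named collection. For the cyclic arrays the elapsed time may not match, because that regime may have run for 4 h. Signal over background limits Slc30a1, the dim Mt1 probe set and both Mtf1 probe sets.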
